A study of Mus musculus with 6 samples.

Results

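The levels of 40 genes that act in G2 phase and mitosis were examined in dentate neuroepithelium of mice with 0, 1 or 2 floxed Sox11 alleles. The genes were taken from the deposited table by symbol, and all 40 were found among its 35274 rows. They code for mitotic kinases and cyclins, spindle checkpoint proteins, kinesins, and proteins of the centromere, spindle, cleavage furrow and mitotic chromosome. In sum these genes took 1209 and 762 TPM in the 2 wild type (WT) libraries, 959 and 696 TPM in the heterozygous (HTZ) ones and 638 and 683 TPM in the homozygous (HOMO) ones. The sums were 986 ± 316 TPM in WT, 828 ± 185 TPM in HTZ and 661 ± 32.1 TPM in HOMO tissue (SD, n = 2 libraries each). The unit, TPM, corrects for transcript length and gives every library the same total. Both homozygous libraries were below both wild type libraries for 30 of the 40 genes (30.7% of all genes tested were), none of the 40 passed the test over all genes, and the sum in the first wild type library was 1.59 times that in the second.

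Cells double their chromosomes in S phase and separate them in mitosis. Cyclin-dependent kinase 1 with the B cyclins starts mitosis, the checkpoint holds it until every kinetochore is attached to spindle microtubules, and the anaphase-promoting complex then marks cyclins and securin for destruction. Most of these transcripts build up in G2 and are low in cells that have left the cycle, which makes them common markers of dividing cells. In the embryonic hippocampus the dividing cells include radial glia of the ventricular wall and intermediate progenitors, whereas newborn neurons do not divide.

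The tissue was dissected from mice labelled embryonic day 14. The genotypes were wild type (WT), SOX11f/+ (HTZ, called haplodeficient in the labels) and SOX11f/f (HOMO, called homodeficient), with 2 libraries each. The labels give neither a Cre driver nor the number of embryos behind a library. The p-values therefore describe variation among 6 libraries that may be partly technical. The libraries hold polyadenylated RNA and were built with a TruSeq RNA kit. Sox11, a SoxC transcription factor gene of newborn neurons, stood at 192 and 130 TPM in WT, 56.1 and 50.1 in HTZ and 5.23 and 5.06 in HOMO libraries, which matched the labels. Between 18722 and 19408 rows per library were above 0, and the read depth is unknown because TPM keeps none. Markers of the labelled tissue were present, with the progenitor gene Sox2 between 73.0 and 104 TPM and Eomes, of intermediate progenitors, between 39.7 and 90.0 TPM. Genes of more mature cells were present too. The synaptic kinase gene Camk2a of mature neurons stood between 121 and 496 TPM and Slc17a7, also of mature neurons, between 79.8 and 393 TPM. The astrocyte gene Gfap stood between 268 and 576 TPM. How these levels bear on the labelled tissue and stage was not tested.

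The promoters of these genes share sequence elements that the choice of genes did not use. The cell cycle genes homology region (CHR), read by the DREAM and MYB-MuvB complexes, was searched as TTTGAA or TTCGAA, and the box bound by NF-Y as CCAAT, both on either strand. TTCGAA reads the same on both strands and was counted once, and no CHR match overlapped a CCAAT match. RefSeq windows of GRCm38.p6 from 250 bases before to 50 bases after the start were found for 34 of the 40 genes. A CHR was present in 28 of 34 genes (82.4%), against 21.7% of all 27025 genes with a window and 20.2% of the 17492 protein-coding ones. CCAAT was present in 26 of 34 (76.5%), against 41.1% of all genes and 42.3% of coding ones. Both elements together were in 24 of 34 genes (70.6%), against 8.61% of all genes and 8.22% of coding ones. E2F-type sites, searched as TTTGGCGC, TTTCGCGC or TTTCCCGC, were in 2 of 34 (5.88%), against 2.12% of all genes. A match is a string of letters and not evidence of binding.

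To show these elements, the 120 bases just before the start are printed 5′ to 3′ for 6 genes, with CHR and CCAAT matches in capitals (CCAAT on the other strand reads ATTGG, and TTTGAA reads TTCAAA). Cdk1 (chr10:69352913-69353032 on the minus strand), Top2a (chr11:99024190-99024309 on the minus strand) and Ube2c (chr2:164769809-164769928 on the plus strand) are the 3 genes with the highest mean level. Cdc20 (chr4:118437344-118437463 on the minus strand) holds a CHR and a CCAAT next to the start. Ccnb1 (chr13:100786487-100786606 on the minus strand) and Cenpe (chr3:135212443-135212562 on the plus strand) are the only 2 of the 34 that held CCAAT without a CHR in the window, and Cenpe had the lowest log2 fold change of the 40 in HOMO against WT (-0.91).
Cdk1: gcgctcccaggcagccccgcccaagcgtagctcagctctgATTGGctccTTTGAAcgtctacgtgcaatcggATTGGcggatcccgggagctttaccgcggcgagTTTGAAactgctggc
Top2a: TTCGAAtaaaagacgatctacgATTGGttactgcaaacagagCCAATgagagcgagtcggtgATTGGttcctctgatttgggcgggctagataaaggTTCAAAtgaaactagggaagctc
Ube2c: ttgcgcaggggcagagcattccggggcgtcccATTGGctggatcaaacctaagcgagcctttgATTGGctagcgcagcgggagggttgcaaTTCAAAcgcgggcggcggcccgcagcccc
Cdc20: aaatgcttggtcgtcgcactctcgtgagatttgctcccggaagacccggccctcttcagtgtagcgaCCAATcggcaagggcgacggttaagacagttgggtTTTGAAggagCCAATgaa
Ccnb1: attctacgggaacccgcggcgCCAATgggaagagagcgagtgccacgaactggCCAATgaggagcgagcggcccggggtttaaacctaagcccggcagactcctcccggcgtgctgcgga
Cenpe: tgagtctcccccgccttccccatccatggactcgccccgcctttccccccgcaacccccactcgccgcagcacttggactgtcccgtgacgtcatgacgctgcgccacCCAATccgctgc
Of the 6, Cdk1 and Top2a carry 2 CHR matches each in this stretch, and Ube2c and Cdc20 carry 1 each. Anln, Kif20b, Kif2c and Ndc80 held a CHR without CCAAT, and Birc5, Mad2l1, Nuf2 and Nusap1 held neither. Over the 36 windows of the 34 genes, where Ect2 and Prc1 have 2 windows each so that a match they share counts for both, the 43 CHR matches lay from 188 bases before to 40 bases after the start with a median offset of -5 bases. The 66 CCAAT matches had a median offset of -79.5 bases, and 65 of them began before the start.

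**Figure D1:**
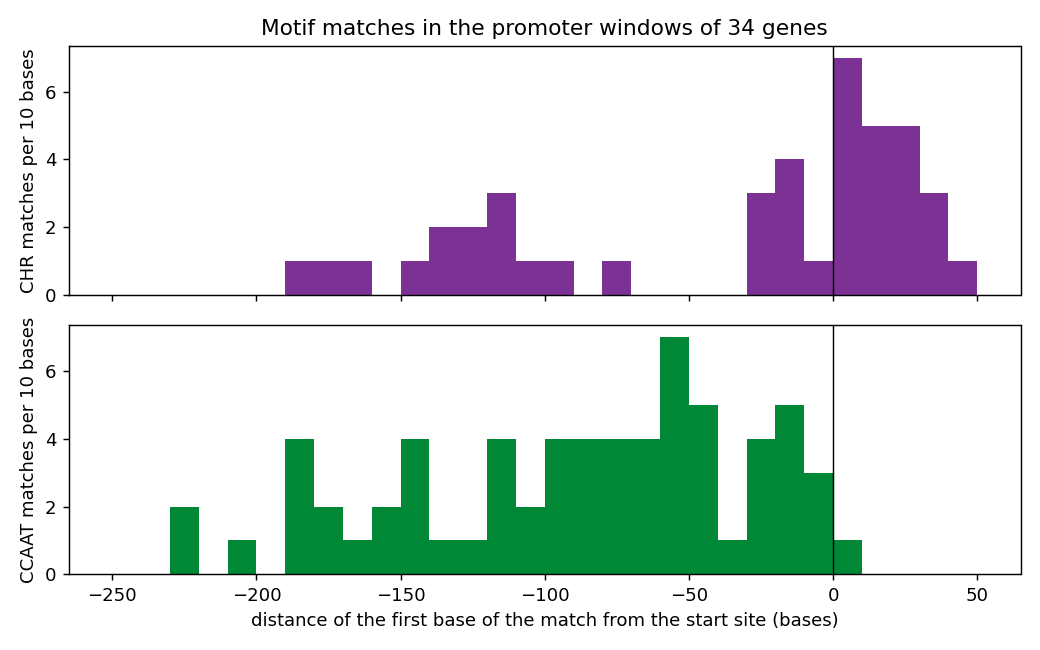
Number of CHR (top) and CCAAT (bottom) matches per 10 bases in the promoter windows of the 34 genes with a RefSeq window, by distance of the first base of the match from the start site in bases. CHR matches crowd around the start, with a median offset of -5 bases, while 65 of 66 CCAAT matches begin before it.

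Across the 40 genes the mean over the 6 libraries ran from 63.2 TPM for Cdk1 to 6.02 TPM for Kif20b, so all of them passed the filter of a mean of 1 TPM. Top2a (60.1 TPM) and Ube2c (57.1 TPM) followed Cdk1, and Aspm (6.24 TPM) lay next to Kif20b at the low end. Neighbours in this order did not separate: Cdk1 ranged from 49.0 to 89.1 TPM over the libraries and Top2a from 43.4 to 90.8 TPM. The genes varied together from library to library. WT replicate 1 was the highest library for 38 of the 40 genes and HTZ replicate 1 for the other 2, Cdk1 and Smc4. HOMO replicate 1 was the lowest library for 26 genes, HOMO replicate 2 for 8, HTZ replicate 2 for 5 and WT replicate 2 for 1, Ndc80. Over all 14518 genes tested, WT replicate 1 was the highest library for 41.0% and HOMO replicate 1 the lowest for 14.2%.

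Replicates of the same genotype were far apart in WT and HTZ and close in HOMO. On the log2(TPM + 1) scale, WT replicate 1 lay above WT replicate 2 for 40 of 40 genes, with a median gap of 0.63 and a range from 0.28 to 1.05. HTZ replicate 1 lay above HTZ replicate 2 for 40 of 40 genes too, with a median gap of 0.38. In HOMO the gap was -0.10 in the median, and replicate 1 was the higher one for 10 of 40. Over all genes tested the median gaps were 0.12, 0.06 and -0.00. Relative to the WT mean, the median of the 40 genes was 0.32 and -0.32 in WT, -0.05 and -0.44 in HTZ and -0.57 and -0.50 in HOMO. HTZ replicate 1 thus lay between the WT libraries, and HTZ replicate 2 lay below both.

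**Figure D2:**
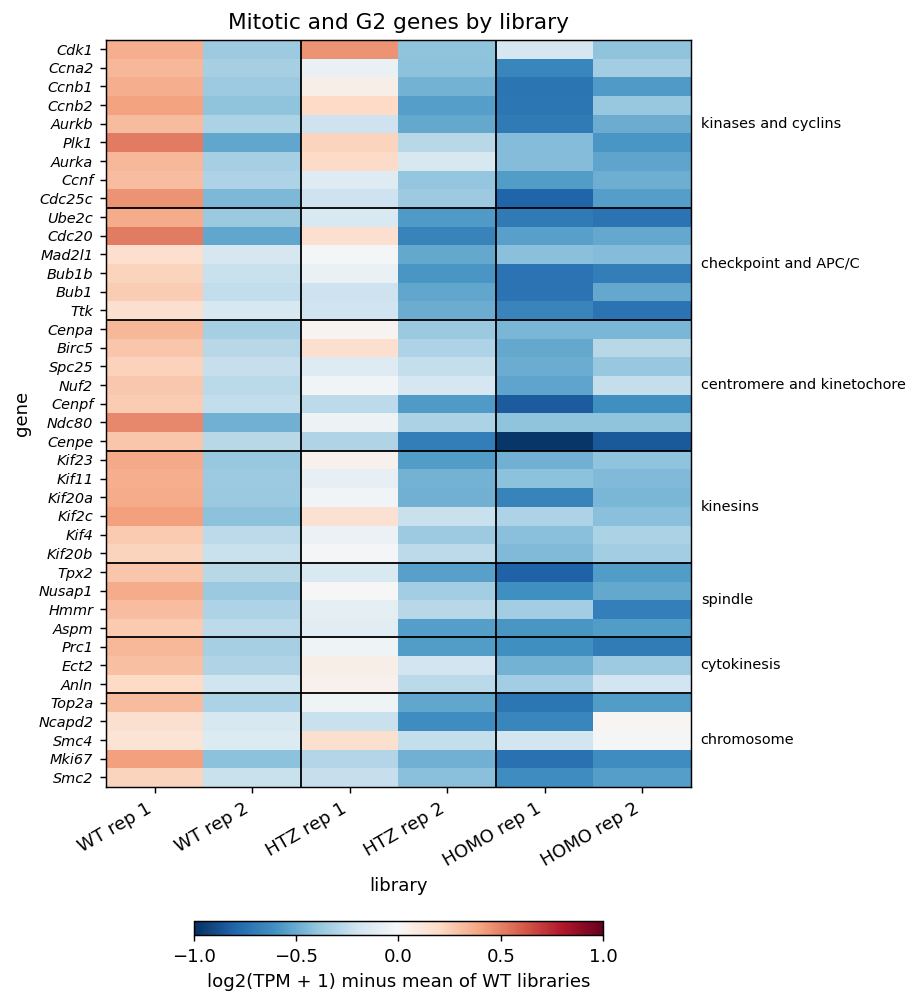
Each row is 1 of the 40 genes, grouped by role, and each column 1 library. Colour gives log2(TPM + 1) minus the mean of both WT libraries, with red above and blue below. WT replicate 1 is red throughout, HTZ replicate 1 is mixed, and the HOMO columns are the bluest, with Cenpe the darkest row.

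Among mitotic kinases and cyclins (9 genes), HTZ overlapped WT for all 9 (28.9% of all genes tested lay lower without overlap), and HOMO lay below WT without overlap for 6 (30.7% of all genes). Values are given with replicate 1 first. Cdk1, the kinase that drives entry into mitosis, stood at 83.5 and 50.6 TPM in WT, 89.1 and 49.1 in HTZ and 57.7 and 49.03 in HOMO libraries. Its partner Ccnb1, cyclin B1, had 49.2 and 29.3 TPM in WT, 39.7 and 27.2 in HTZ and 22.6 and 25.2 in HOMO. For Cdk1 the 3 genotypes overlapped, whereas both HOMO libraries were the lowest for Ccnb1. Ccnb2, cyclin B2, had 31.8 and 17.8 TPM in WT, 27.5 and 15.98 in HTZ and 14.1 and 18.1 in HOMO. Ccna2, cyclin A2, which acts in S phase and G2, had 50.6 and 31.8 TPM in WT, 38.1 and 29.9 in HTZ and 25.1 and 31.2 in HOMO. HOMO replicate 2 was above WT replicate 2 for Ccnb2 and just below it for Ccna2, so HOMO and WT overlapped for Ccnb2 and not for Ccna2. Aurka, the Aurora kinase of the centrosome and spindle, had 19.1 and 11.6 TPM in WT, 17.2 and 13.2 in HTZ and 10.8 and 10.01 in HOMO. Aurkb, the Aurora kinase of the chromosomal passenger complex, had 29.7 and 18.8 TPM in WT, 20.2 and 16.3 in HTZ and 14 and 16.4 in HOMO. Plk1, the polo-like kinase that acts from G2 to cytokinesis, had 22.3 and 10.3 TPM in WT, 17.9 and 12.3 in HTZ and 11.02 and 9.85 in HOMO. Aurka and Aurkb were lower in both HOMO than in both WT libraries, but HOMO replicate 1 exceeded WT replicate 2 for Plk1. The other 2 of this group, Ccnf and Cdc25c, ranged from 4.35 to 14.8 TPM and were lower in both HOMO libraries than in either WT library.

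The 6 genes of the spindle checkpoint and of the anaphase-promoting complex (APC/C) showed lower HOMO values, with 5 of 6 not overlapping WT, against 30.7% of all genes. Bub1, a checkpoint kinase at kinetochores, had 13.3 and 9.12 TPM in WT, 9.43 and 7.41 in HTZ and 6.22 and 7.44 in HOMO. Bub1b, which codes for BubR1, had 25.1 and 18.1 TPM in WT, 20.2 and 13.9 in HTZ and 12.4 and 12.8 in HOMO. Mad2l1, the Mad2 protein that holds back Cdc20, had 28.9 and 22.5 TPM in WT, 25.3 and 17.6 in HTZ and 18.9 and 18.6 in HOMO. In these 3 genes every HOMO value was below every WT value. Ttk, the Mps1 kinase that starts checkpoint signalling, had 9.54 and 7.39 TPM in WT, 7.20 and 5.67 in HTZ and 4.95 and 4.64 in HOMO. Cdc20, the activator of the APC/C, had 46.7 and 22.1 TPM in WT, 36.4 and 19.8 in HTZ and 21.8 and 22.2 in HOMO. Ube2c, the ubiquitin-conjugating enzyme of the APC/C, had 92.02 and 54.5 TPM in WT, 63.8 and 47.3 in HTZ and 42.9 and 41.9 in HOMO. Ttk and Ube2c separated the HOMO from the WT libraries, and Cdc20 did not, since WT replicate 2 lay among the HOMO values.

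Of the centromere and kinetochore genes (7 with Birc5), 5 were lower in HOMO than in WT without overlap, against 30.7% of all genes. Cenpe, a kinesin that carries chromosomes to the spindle equator, had 11.3 and 7.33 TPM in WT, 7.24 and 5.27 in HTZ and 4.17 and 4.66 in HOMO. Cenpf, a large kinetochore protein of G2 and mitosis, had 18.3 and 12.7 TPM in WT, 12.6 and 9.93 in HTZ and 8.13 and 9.63 in HOMO. For both genes HTZ lay below WT and HOMO below HTZ without overlap, although HTZ replicate 1 was only just below WT replicate 2. Cenpa, the histone H3 variant of centromeres, had 61.8 and 38.8 TPM in WT, 50.2 and 37.6 in HTZ and 35.4 and 35.4 in HOMO. Ndc80, which links kinetochores to microtubules, had 13.4 and 6.39 TPM in WT, 8.93 and 7.25 in HTZ and 6.81 and 6.81 in HOMO. Birc5, survivin of the passenger complex, had 34.1 and 22.9 TPM in WT, 31.5 and 22.4 in HTZ and 19.4 and 22.8 in HOMO. Ndc80 had its highest and its lowest value in the WT libraries. Cenpa and Birc5 were lower in both HOMO than in both WT libraries, Birc5 by a narrow margin. Nuf2 and Spc25, partners of Ndc80, ranged from 16.2 to 32.9 TPM, and HOMO overlapped WT for Nuf2 but not for Spc25.

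**Figure D3:**
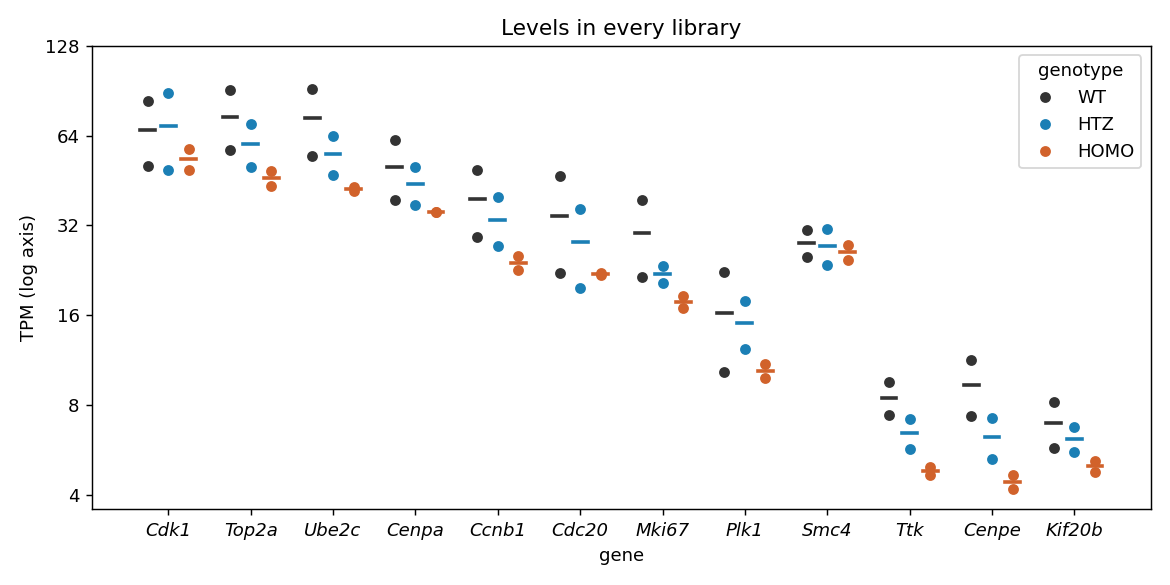
TPM on a log axis in every library for 12 of the 40 genes. Points are libraries (2 for each genotype) and bars are means. For Top2a the WT points lie at 57.5 and 90.8 TPM and the HOMO points, below both, at 43.4 and 48.6 TPM, while for Cdk1 and Smc4 the genotypes overlap.

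The 6 kinesins stood between 4.78 and 22.1 TPM. Kif11, the Eg5 motor that pushes spindle poles apart, had 16.4 and 9.60 TPM in WT, 11.8 and 8.79 in HTZ and 9.23 and 9.01 in HOMO. Kif23, a motor of the central spindle, had 22.1 and 12.6 TPM in WT, 17.2 and 10.98 in HTZ and 11.7 and 12.4 in HOMO. Kif20b, with the lowest mean, had 8.15 and 5.74 TPM in WT, 6.73 and 5.56 in HTZ and 4.78 and 5.18 in HOMO. In Kif11, Kif23 and Kif20b both HOMO values were below both WT values, and for 5 of the 6 kinesins HOMO lay below WT without overlap, against 30.7% of all genes, Kif2c being the exception. The table holds Kif11 on 2 rows with different identifiers and identical values, 1 of 104 symbols repeated in this way. If reads were divided between both rows, the level of Kif11 is the sum of both, and the sources used here do not say.

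For spindle and cytokinesis genes (4 and 3), HOMO lay below WT without overlap in all but Anln, against 30.7% of all genes. Tpx2, which activates Aurora A on the spindle, had 37.1 and 25 TPM in WT, 27.3 and 20.6 in HTZ and 16.98 and 20.3 in HOMO. Aspm, a spindle pole protein whose loss causes microcephaly, had 9.41 and 6.30 TPM in WT, 7.05 and 4.95 in HTZ and 4.83 and 4.91 in HOMO. Prc1, which bundles central spindle microtubules, had 55.4 and 34.5 TPM in WT, 42.5 and 29.4 in HTZ and 28.3 and 26.6 in HOMO. All 3 were lower in both HOMO libraries than in either WT library, as were Nusap1 and Hmmr. Anln, the anillin scaffold of the cleavage furrow, had 10.1 and 7.38 TPM in WT, 8.91 and 6.96 in HTZ and 6.57 and 7.44 in HOMO. Ect2, which activates RhoA in cytokinesis, ranged from 9.12 to 16.2 TPM. For Anln HOMO replicate 2 was just above WT replicate 2.

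Genes of the mitotic chromosome (5) held both large and small differences. Top2a, topoisomerase II alpha, had 90.8 and 57.5 TPM in WT, 70.2 and 50.2 in HTZ and 43.4 and 48.6 in HOMO. Mki67, the Ki-67 protein that coats mitotic chromosomes, had 38.9 and 21.5 TPM in WT, 23.4 and 20.5 in HTZ and 16.9 and 18.5 in HOMO. Smc2, a condensin subunit, had 28.8 and 21.1 TPM in WT, 20.9 and 18.2 in HTZ and 15.8 and 16.6 in HOMO. For these 3 genes the HOMO values were below all WT values. Smc4, the partner of Smc2 in condensin, had 30.9 and 25.1 TPM in WT, 31.1 and 23.5 in HTZ and 24.5 and 27.6 in HOMO. Ncapd2, another condensin I subunit, had 35.5 and 28.1 TPM in WT, 26.99 and 20.2 in HTZ and 19.8 and 32.1 in HOMO. Smc4 overlapped in all 3 comparisons. For Ncapd2 both HTZ libraries were below both WT libraries, and HOMO replicate 2 was far above HOMO replicate 1. Ncapd2 shares 237 exon bases with the small RNA gene Scarna10 on the same strand in GENCODE vM21. Likewise, Top2a shares 122 with the small RNA gene Gm23451, and Ccnf, of the kinase and cyclin group, 8 with the microRNA gene Mir5134. The effect of these overlaps on the levels was not tested.

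Heterozygous tissue was then compared with wild type by limma on log2(TPM + 1) over all 14518 genes. A gene was called at an adjusted p of 0.05. For the 40 genes 0 were called and 0 had an unadjusted p under 0.05, while 0.0344% of all genes were called, 7.63% had an unadjusted p under 0.05 with lower values in HTZ and 6.42% with higher values. The median log2 fold change was -0.25, against -0.06 for all genes, with 38 of 40 below 0 against 59.8% of all genes. Libraries did not overlap, with HTZ lower, for 5 of 40 (12.5%), against 28.9% of all genes, and with HTZ higher for 0 of 40, against 17.1%. The 4 genes with the smallest p were Cenpe (log2 fold change -0.50, SE 0.25, limma adjusted p = 0.43), Cenpf (-0.42, SE 0.22, limma adjusted p = 0.44), Smc2 (-0.32, SE 0.18, limma adjusted p = 0.44) and Ttk (-0.35, SE 0.21, limma adjusted p = 0.48). Cdk1 had the highest value, at 0.02 (SE 0.32, limma adjusted p = 0.98). The gap between WT replicates exceeded the difference of the genotype means for 38 of the 40. The median turned to 0.08, with 11 of 40 below 0, without WT replicate 1, and was -0.57 without WT replicate 2, -0.05 without HTZ replicate 2 and -0.44 without HTZ replicate 1.

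Homozygous tissue lay lower than wild type for all 40 genes in this fit, where 55.2% of all genes lay lower. With limma 0 of the 40 were called (0.0413% of all genes were), and 14 had an unadjusted p under 0.05 with lower values in HOMO (35%, against 9.8% of all genes), with 0 on the higher side (8.35% of all genes). The median log2 fold change was -0.52, against -0.04 for all genes. For 30 of 40 genes (75%) both HOMO libraries were below both WT libraries, against 30.7% of all genes, and for 0 of 40 both were above, against 23.6%. The smallest p belonged to Cenpe (-0.91, SE 0.25, limma adjusted p = 0.16), Ttk (-0.70, SE 0.21, limma adjusted p = 0.17), Smc2 (-0.58, SE 0.18, limma adjusted p = 0.17) and Cenpf (-0.72, SE 0.22, limma adjusted p = 0.18). At the other end stood Smc4 at -0.10 (SE 0.18, limma adjusted p = 0.79). By role the median was -0.66 for checkpoint and APC/C genes, -0.58 for chromosome genes, -0.56 for spindle genes, -0.53 for kinases and cyclins, -0.44 for centromere and kinetochore genes and -0.41 for both kinesins and cytokinesis genes. Among genes with a promoter window the median was -0.53 for the 24 with CHR and CCAAT and -0.40 for the other 10, whose ranges overlapped. The median was -0.20, with 35 of 40 below 0, without WT replicate 1, and -0.83 without WT replicate 2. The HTZ and HOMO comparisons share the same 2 WT libraries.

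**Figure D4:**
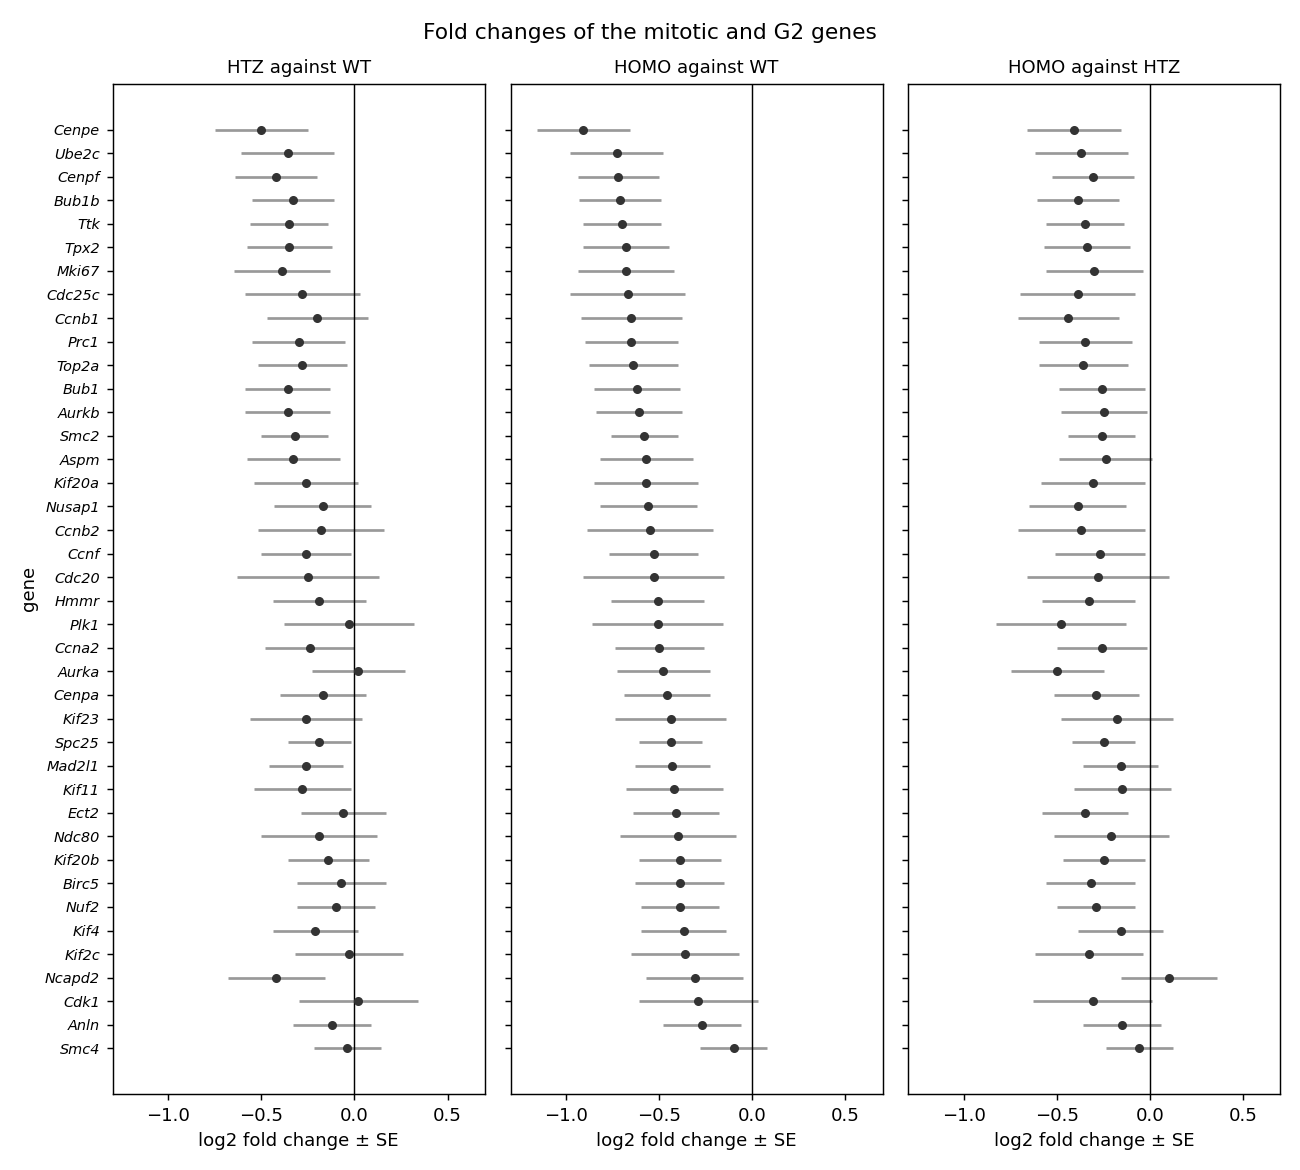
Log2 fold changes with limma's SE (bars) for the 40 genes in the 3 comparisons, ordered by HOMO against WT. In HOMO against WT all points lie below 0, from -0.91 for Cenpe to -0.10 for Smc4. In HTZ against WT most bars reach or cross 0.

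Homozygous and heterozygous libraries were compared in the same fit. Of the 40 genes 0 were called by limma and 0 had an unadjusted p under 0.05, where 0.0138% of all genes were called and 0.902% had an unadjusted p under 0.05 with lower and 1.14% with higher values in HOMO. The median log2 fold change was -0.30, against 0.01 for all genes, with 39 of 40 below 0 against 45.9% of all genes. For 25 of 40 (62.5%) both HOMO libraries were below both HTZ libraries, against 13.7% of all genes, and for 0 of 40 both were above, against 15.3%. The smallest p were those of Aurka (-0.50, SE 0.25), Bub1b (-0.39, SE 0.22), Ttk (-0.35, SE 0.21) and Ccnb1 (-0.44, SE 0.27), each with a limma adjusted p of 1. Ncapd2 alone lay higher in HOMO, at 0.10 (SE 0.26, limma adjusted p = 1). The median was -0.13 without HTZ replicate 1 and -0.47 without HTZ replicate 2. Without HTZ replicate 1 and HOMO replicate 1 it was -0.08, with 26 of 40 below 0, against 39.9% of all genes. Those are the libraries richest in the choroid plexus gene Ttr, and the setting was chosen after seeing the data.

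A further list of 88 mitosis genes outside the 40 was set beside them, and 87 of these were found and tested. This list too was chosen with earlier results of these data known, and it was measured in the same libraries, so it is no independent check. Relative to the WT mean its median was 0.22 and -0.22 in WT, -0.10 and -0.34 in HTZ and -0.47 and -0.33 in HOMO. WT replicate 1 was highest and HOMO replicate 1 lowest, as for the 40 genes, but HTZ replicate 2 and HOMO replicate 2 stood level. With limma 0 of 87 were called in any comparison. In HOMO against WT 83 lay below 0 (95.4%, against 55.2% of all genes). In that comparison 21 had an unadjusted p under 0.05 with lower values in HOMO (24.1%, against 9.8% of all genes). There was 1 such gene of 87 in HTZ against WT, where 7.63% of all genes were, and 1 in HOMO against HTZ, where 0.902% were. The 3 with the smallest p in HOMO against WT were Stmn1, which destabilises microtubules and is also abundant in newborn neurons (-0.84, SE 0.14, limma adjusted p = 0.07), G2e3, a ubiquitin ligase of G2 (-0.74, SE 0.15, limma adjusted p = 0.11), and the lamin gene Lmnb1 (-0.73, SE 0.18, limma adjusted p = 0.12). In HTZ against WT they were G2e3 (-0.39), Stmn1 (-0.33) and the condensin gene Ncapg (-0.42), with limma adjusted p from 0.34 to 0.38. In HOMO against HTZ they were Stmn1 (-0.52), the kinetochore gene Ska3 (-0.49) and G2e3 (-0.35), with a limma adjusted p of 1.

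Other cell cycle phases were set beside the 40 genes as library medians relative to the WT mean. The 54 S phase genes had 0.17 and -0.17 in WT, -0.18 and -0.30 in HTZ and -0.39 and -0.21 in HOMO. In HOMO against HTZ their median log2 fold change was -0.05, beside -0.30 for the 40 genes and -0.14 for the 87 other mitosis genes. The 9 G1 genes, which are cyclins and kinases with Rb1, Rbl1 and E2f3, had a median of -0.21 in HOMO against WT and 0.04 in HOMO against HTZ. The 9 cell cycle exit genes, such as Cdkn1b, had 0.04 and -0.01 in the same comparisons. In HOMO against WT the median was -0.52 for the 40 genes, -0.41 for the other mitosis genes and -0.32 for S phase genes. In HTZ against WT the medians of the 4 lists were level. They were -0.25 for the 40 genes, -0.23 for other mitosis genes and -0.24 for both S phase and G1 genes. Both HTZ libraries were nevertheless below both WT libraries for 51.9% of S phase genes, against 12.5% of the 40 and 28.9% of all genes. In HOMO against WT all 54 S phase genes lay below 0 too, and 55.6% lay lower without overlap. That share was 75% for the 40 and 30.7% for all genes. Differences between lists were not tested.

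**Figure D5:**
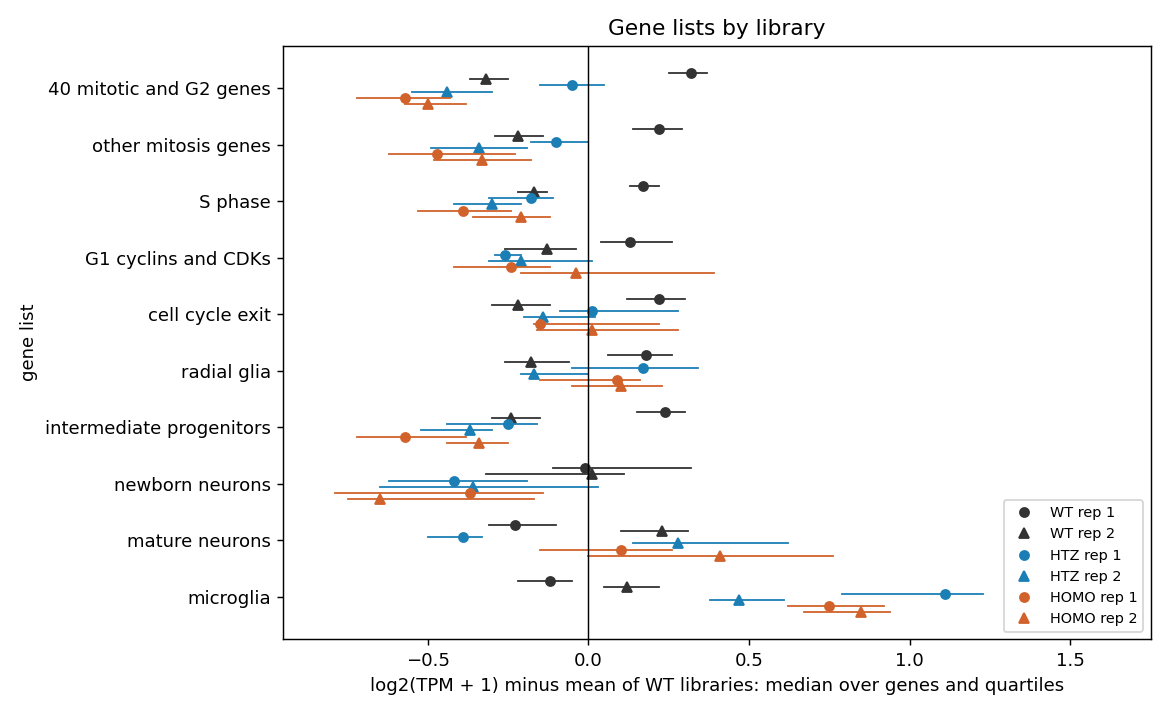
Median over genes (points) and quartiles (lines) of log2(TPM + 1) minus the WT mean for 10 gene lists in each library, circles for replicate 1 and triangles for replicate 2. The medians of the 40 genes reach from 0.32 in WT replicate 1 to -0.57 in HOMO replicate 1. Those of radial glia genes lie between -0.18 and 0.18, with quartiles from -0.26 to 0.34.

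Markers of the cell types in the tissue were summed in each library. In bulk tissue, fewer cells of a type and less RNA per cell cannot be told apart. Radial glia markers (17 genes, none at 0) summed to 4089 and 3937 TPM in WT, 4786 and 4392 in HTZ and 4205 and 4298 in HOMO. The largest part of each sum was Fabp7, at 2268 to 3008 TPM. Intermediate progenitor markers (10 genes, 1 at 0 in HTZ replicate 1) summed to 590 and 422 TPM in WT, 382 and 361 in HTZ and 332 and 383 in HOMO, so WT replicate 1 was highest there as for the 40 genes. Newborn neuron markers (14, none at 0) summed to 5755 and 6766 TPM in WT, 4813 and 5549 in HTZ and 4812 and 4614 in HOMO. The largest genes of this sum were Tubb3, Stmn2 and Gap43, each higher in WT replicate 2. Others, such as Neurod1 (392 and 234 TPM) and Prox1 (175 and 110 TPM), were higher in WT replicate 1. Relative to the WT mean the median of the 14 was -0.01 and 0.01 in WT, -0.42 and -0.36 in HTZ and -0.37 and -0.65 in HOMO. The sum of mature neuron markers (14, none at 0) was lowest in the 2 libraries with the most mitotic transcripts. It stood at 1634 TPM in WT replicate 1 and 1387 TPM in HTZ replicate 1. In WT replicate 2, HTZ replicate 2 and the HOMO libraries it was 2265, 2294, 2065 and 2781 TPM. Not every gene of this list followed the sum: Rbfox3 (142 TPM) and Gad1 (79.5 TPM) were highest in WT replicate 1.

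Markers of other cell types differed between genotypes or stood high in single libraries. Microglia markers (14, none at 0) summed to 261 and 311 TPM in WT, 637 and 410 in HTZ and 502 and 523 in HOMO. Ependymal markers (11, with 1 and 2 at 0 in WT) summed to 47.0 and 36.3 TPM in WT and from 205 to 663 TPM in the other 4 libraries. Choroid plexus markers (10, 1 at 0 in WT replicate 2) summed to 11769 TPM in HTZ replicate 1 and 6722 in HOMO replicate 1, and from 37.5 to 306 TPM elsewhere. Ttr alone stood at 11259 TPM in HTZ replicate 1 and 6421 TPM in HOMO replicate 1. Astrocyte and oligodendrocyte markers (14, none at 0) ran from 651 to 715 TPM in WT and from 828 to 1261 in the other 4. Erythroid markers (9, 1 to 3 at 0) were highest in WT replicate 1 at 774 TPM, against 292 in WT replicate 2. Meningeal markers (8, none at 0) stood at 386 and 130 TPM in WT and at 1512 TPM in HOMO replicate 2, where Ptgds alone had 1216 TPM. Endothelial markers (10, none at 0) ran from 145 to 286 TPM. The part of these cells in the levels of the 40 genes was not tested. Leaving out the 2 libraries with the most Ttr left only replicate 2 of HTZ and of HOMO. The median of the 40 was then -0.50 in HOMO against WT, with 39 of 40 below 0 (53.8% of all genes). In HTZ against WT it was -0.44, with 40 of 40 below 0 (61.6% of all genes). These medians are the values of single libraries, and the HTZ library left out was the higher one for the 40 genes. They therefore do not test the part of choroid plexus cells.

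Shared sequence limits a few levels. At 95% identity over at least 200 bases, 4 of the 40 genes had copies among the transcripts of other genes. The 4 are Ccnb1, Mad2l1, Mki67 and Ndc80. Copies of the first 3 were listed at 0.13 TPM or less where the table holds them. The Ndc80 copy 2700099C18Rik, 95.05% identical over 303 bases, stood at 14.7 and 7.89 TPM in WT, 8.63 and 6.87 in HTZ and 6.93 and 7.81 in HOMO libraries, so Ndc80 is uncertain. Exons overlap those of a coding gene on the other strand for Kif20a with Cdc23 (1271 bases), Prc1 with Rccd1 (911), Kif4 with Pdzd11 (832), Cdc25c with Gm3550 (623), Ube2c with Tnnc2 (592), Ccna2 with Exosc9 (510), Nusap1 with Oip5 (172) and Cdc20 with Elovl1 (53). The kit named in the labels does not mark strand, so reads of these pairs that lie within the shared bases cannot be told apart by strand. Tnnc2 was listed at 0.13 TPM or less and Gm3550 at 0.55 TPM or less in every library. The other partners were higher: Cdc23 ran from 65.2 to 114 TPM, Pdzd11 from 40.5 to 49.7 and Exosc9 from 40.2 to 56.3. Rccd1 ran from 12.7 to 20.9 TPM, Elovl1 from 9.45 to 18.3 and Oip5 from 5.70 to 9.73. Kif20a (7.70 to 16.9 TPM) and Kif4 (5.94 to 10.2 TPM) stood far below their partners, so their levels are uncertain.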

How the data were processed

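The authors deposited TPM for 35274 genes in 6 libraries. Per the design text in the labels, TopHat 2.0.11 (mm10) and Cufflinks 2.2.1 were used, while the submitters' processing notes name FastQC and RSEM with mm10 and GRCm38. Depth is unknown, so no counting interval was computed. Columns were matched to samples by title. The test was limma 3.58.1 (R 4.3.3) on log2(TPM + 1) for the 14518 genes whose mean reached 1 TPM, with a term per genotype, an intensity trend, 3 residual degrees of freedom and p-values adjusted over all genes by Benjamini-Hochberg. Fold changes of low genes are understated on this scale. With 2 libraries a genotype, the smallest two-sided exact p is 0.33. On simulated data for HOMO against WT over 14413 genes, limma recovered 66% of 100 genes changed 2-fold and 98% of 100 changed 4-fold, with 13 false calls.

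The 40 genes and all lists were chosen with earlier results of these data known. Genes given with a fold change are, in each comparison, the 4 with the smallest p and both extremes. Levels in every library are given for these, for the 2 highest and 2 lowest genes and for fixed examples of each role. Positions came from GENCODE vM21 (GRCm38), copies from BLAST 2.17.0 and promoters from RefSeq (GRCm38.p6). A search for protein motifs was not run. Alternatives were other pseudocounts, filters, scaling (an unweighted trimmed mean of M values), the replicate block, eBayes without a trend, 2 genotypes only and each library left out. No per-sample column was left out.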

Additional observations from a re-analysis of the deposited data

How the results depend on the processing

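Over every setting run, 0 of the 40 genes were called in any of the 3 comparisons, with the lowest limma adjusted p at 0.23 in HTZ against WT, 0.085 in HOMO against WT and 0.81 in HOMO against HTZ. Outside the settings that leave out a library, the median of the 40 kept its sign in each comparison. Leaving out 1 library in turn moved it from -0.57 to 0.08 in HTZ against WT (11 to 40 genes below 0), from -0.83 to -0.20 in HOMO against WT (35 to 40 below 0) and from -0.47 to -0.13 in HOMO against HTZ (31 to 40 below 0). Genes called over the whole table, 5, 6 and 2 in the main analysis, ran from 3 to 391, 3 to 395 and 1 to 5 when 1 library was left out. For HTZ against WT a pseudocount of 0.1 gave 49, a pseudocount of 5 gave 3, no filter gave 1 and the replicate block gave 9. Leaving out HTZ replicate 1 and HOMO replicate 1, the libraries highest in Ttr, gave 210 (a setting chosen after seeing the data). For HOMO against WT a pseudocount of 0.1 gave 149, no filter 3, the replicate block 283, the 2 genotypes only 396 and leaving out the Ttr libraries 713. For HOMO against HTZ it was 1 with no filter, 1 without a trend and 45 without the Ttr libraries. The cause of these moves was not tested. Fold changes under each setting were followed for 5 genes per comparison, and of these the ones that changed sign were Cdk1 in HTZ against WT (-0.40 to 0.45 with 1 library left out, -0.40 without the Ttr libraries), Smc4 in HOMO against WT (-0.24 to 0.05) and Ncapd2 in HOMO against HTZ (-0.23 to 0.44). The replicate block left the medians of the 40 at -0.25, -0.52 and -0.30. The replicate numbers share no stated origin, and the gaps between replicate 1 and 2 correlated across genes at 0.21 for WT with HTZ, -0.09 for WT with HOMO and 0.35 for HTZ with HOMO. When a genotype was left with 1 library, that library was assumed to vary like the others.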

Other observations

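Regulators that act on the CHR were measured as well, and these genes were picked from the list of other mitosis genes after their values were seen. Foxm1, which activates G2 genes, stood at 23.7 and 15.0 TPM in WT, 15.5 and 12.9 in HTZ and 10.4 and 12.8 in HOMO libraries. Mybl2, the B-Myb subunit of the MYB-MuvB complex, stood at 8.52 and 6 TPM in WT, 5.33 and 4.25 in HTZ and 3.92 and 6.64 in HOMO libraries. Lin9, a MuvB core subunit, stood at 11.3 and 7.45 TPM in WT, 8.57 and 6.67 in HTZ and 6.37 and 7.30 in HOMO libraries. Of the other core subunits, Lin37 stood at 21.9 and 18.7 TPM in WT and 22.3 and 15.7 in HOMO libraries, and Lin52 at 19.3 and 16.1 TPM in WT and 18.6 and 16.6 in HOMO libraries. Lin54, the subunit that binds the CHR, ranged from 7.12 to 9.31 TPM. Foxm1 and Lin9 were lower in both HOMO libraries than in either WT library, as were 30.7% of all genes tested. Lin9 was lower by a narrow margin only, and Mybl2, Lin37, Lin52 and Lin54 overlapped.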
